A study of Mus musculus with 12 samples.

Results

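The collagen genes outside cartilage were followed in 12 RNA libraries of mouse C3H/10T1/2 cells, a fibroblast-shaped line of embryonic origin that can be turned towards bone, cartilage or fat. Members were chosen by symbol (Col, a number, a, a number), leaving out the 8 cartilage collagen genes Col2a1, Col9a1, Col9a2, Col9a3, Col10a1, Col11a1, Col11a2 and Col27a1. This gave 36 of the 47643 genes in the files, and 27 of the 36 had enough counts to be tested.

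All cells were transfected transiently with plasmid DNA (0.5 µg per square cm, using the polymer reagent TurboFect). The medium was changed at 4 hours, and RNA was taken after 3 days. The 4 groups had 3 libraries each. BMP2ADV, the reference, carries a plasmid for bone morphogenetic protein 2 (BMP2), an inducer of bone and cartilage, and BMP2ADV20a, BMP2ADV148b and BMP2ADV590 carry hybrid plasmids built to express BMP2 with a miRNA, named after miR-20a, miR-148b and miR-590. The labels also give every sample the disease entry sarcoma. All 4 groups share the BMP2 plasmid and the transfection, and no untransfected cells were analysed here. Transient transfection leaves a mixed population of cells, and nothing in the labels ties the 3 replicates to separate dishes, so p-values here measure only library-to-library spread, which may be technical.

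Collagens are secreted proteins in which 3 chains wind into a triple helix. Types I, III and V build the fibrils of connective tissue, type IV forms the sheet-like network of basement membranes, and type VI assembles from its α1, α2 and α3 chains into beaded microfilaments around cells. Type VIII makes hexagonal lattices, fibril-associated collagens such as types XII and XVI decorate fibrils, and the multiplexins, types XV and XVIII, sit at basement membranes. Before secretion the chains are hydroxylated, glycosylated and folded, and outside the cell their ends are trimmed and cross-linked.

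In BMP2ADV590, 8 of 27 tested collagen genes rose against BMP2ADV and none fell, where 4.37% of all tested genes were higher and 8.26% were called in either direction. They were Col6a1 and Col6a2 of type VI, Col4a1 and Col4a2 of type IV, both chains of type VIII (Col8a1 and Col8a2), the multiplexin gene Col15a1 and the fibril-associated Col16a1. The increases ran from 0.27 (Col4a1) to 0.85 (Col6a2) on the log2 scale. None of the 6 tested fibrillar genes passed the test, though Col3a1 and Col5a3 did under some alternative settings. No collagen gene passed the test in BMP2ADV20a or BMP2ADV148b against BMP2ADV.

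The libraries were 3′-end tag libraries with 9236431 to 14727288 gene counts, of which the collagen members held 1.35% to 1.59%, or 128715 to 234539 counts. Col1a1 held 27.4% to 37.0% of the member counts, Col1a2 21.1% to 27.7% and Col3a1 7.20% to 9.82%. Between 28 and 31 of the 36 members had at least 1 count in a library. Of 8 genes listed as markers of mesenchymal cells, all 8 were above 10 CPM (counts scaled to a common library total) in every group. Some listed markers of other cell types had 0 counts in all 12 libraries. They were Cdh5 (endothelium), Krt8 and Cldn4 (epithelium), Adgre1 (macrophage), Myod1 and Ckm (skeletal muscle) and Sox10 (neural crest and Schwann cells). These genes were singled out after their values were seen. Other genes of those lists were detected, and their levels are given with the marker sums. Each library was left out in turn.

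Since the results turn on the type VI, type VIII and type IV genes, the start regions of Col6a1, Col6a2, Col6a3, Col8a1 and Col8a2 are shown, with that of Col4a1, whose window overlaps that of Col4a2. Each is the RefSeq window of GRCm38.p6 from 250 bases before to 50 bases after a start site, written 5′ to 3′ on the gene's strand. Capitals mark matches on either strand to 6 motifs. These are the TATA box, searched as TATAAA, the CCAAT box, and the GC box, searched as GGGCGG. A further BMP-related element was searched as GGCGCC, the SMAD palindrome as GTCTAGAC, and a SOX site as AACAATG. The Col6a1 window is chr10:76725995-76726294 (minus strand), that of Col6a2 chr10:76623581-76623880 (minus) and that of Col6a3 chr1:90843922-90844221 (minus). The Col8a1 window is chr16:57754688-57754987 (minus), that of Col8a2 chr4:126286544-126286843 (plus) and that of Col4a1 chr8:11312777-11313076 (minus).
Col6a1: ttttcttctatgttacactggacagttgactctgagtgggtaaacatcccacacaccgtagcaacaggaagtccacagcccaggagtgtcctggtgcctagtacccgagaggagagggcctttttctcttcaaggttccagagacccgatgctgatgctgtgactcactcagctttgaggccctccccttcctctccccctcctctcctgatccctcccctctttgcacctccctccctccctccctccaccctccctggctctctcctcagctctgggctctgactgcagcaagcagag
Col6a2: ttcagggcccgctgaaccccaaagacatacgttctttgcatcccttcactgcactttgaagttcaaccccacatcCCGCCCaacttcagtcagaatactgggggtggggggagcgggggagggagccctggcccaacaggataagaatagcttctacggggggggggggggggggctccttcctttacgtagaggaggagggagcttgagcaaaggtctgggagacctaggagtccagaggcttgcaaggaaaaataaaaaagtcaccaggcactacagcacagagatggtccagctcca
Col6a3: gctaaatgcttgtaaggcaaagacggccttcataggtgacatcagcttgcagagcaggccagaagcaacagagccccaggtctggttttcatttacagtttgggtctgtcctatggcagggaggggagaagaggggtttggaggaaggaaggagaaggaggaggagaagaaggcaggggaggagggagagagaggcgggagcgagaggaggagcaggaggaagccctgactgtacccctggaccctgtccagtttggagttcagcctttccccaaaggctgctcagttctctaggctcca
Col8a1: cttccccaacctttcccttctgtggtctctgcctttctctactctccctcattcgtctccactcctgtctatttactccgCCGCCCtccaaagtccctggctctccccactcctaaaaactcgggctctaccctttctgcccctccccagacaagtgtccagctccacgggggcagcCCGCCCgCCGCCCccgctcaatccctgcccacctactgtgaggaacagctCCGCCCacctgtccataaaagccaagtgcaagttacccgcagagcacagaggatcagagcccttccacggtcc
Col8a2: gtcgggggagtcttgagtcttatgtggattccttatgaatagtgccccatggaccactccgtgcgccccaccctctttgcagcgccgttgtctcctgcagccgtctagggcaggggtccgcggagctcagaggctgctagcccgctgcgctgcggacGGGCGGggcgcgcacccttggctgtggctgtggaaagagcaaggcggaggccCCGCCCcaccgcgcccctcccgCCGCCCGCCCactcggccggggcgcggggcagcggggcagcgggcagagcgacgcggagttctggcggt
Col4a1: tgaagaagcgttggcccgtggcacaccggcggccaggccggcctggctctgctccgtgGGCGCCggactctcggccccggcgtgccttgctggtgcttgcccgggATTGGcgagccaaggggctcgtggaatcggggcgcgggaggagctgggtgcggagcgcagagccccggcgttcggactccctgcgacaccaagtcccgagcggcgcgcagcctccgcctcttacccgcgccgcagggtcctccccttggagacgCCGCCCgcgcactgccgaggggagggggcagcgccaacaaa

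The type VI windows held 3 (Col6a1), 6 (Col6a2) and 3 (Col6a3) CpG dinucleotides, where the median of all 32851 RefSeq windows was 7. The Col4a1 window held 37, that of Col8a2 32 and that of Col8a1 12. No searched motif was found in the Col6a1 or Col6a3 window, and the Col6a2 window held 1 GC box, beginning at -175 with the start site base counted as 0. The Col8a1 and Col8a2 windows each held 4 GC boxes, 2 of which overlap each other in Col8a2. At least 1 GC box was present in 35.66% of all windows, and 4 or more were present in 5.49%. A TATA box was found in 13.62% of all windows, a CCAAT box in 37.41%, GGCGCC in 11.87%, the SMAD palindrome in 0.21% and the SOX site in 3.78%. Of the 29 members with a window, 18 held a GC box, 11 a CCAAT box, 5 GGCGCC, 3 a TATA box, and none the SMAD palindrome or the SOX site. These are counts of genes, with a match in any window of a gene, while the shares above are of single windows. The member counts and those shares are thus not directly comparable. These matches describe letters only.

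Levels below are TMM-normalised CPM in replicates 1, 2 and 3 of each group. Tag counts are not divided by transcript length, so levels are compared between groups and not between genes. A gene is said to have risen or fallen when its adjusted p from edgeR's quasi-likelihood test, with Benjamini-Hochberg adjustment over 13229 genes, was below 0.05. These are RNA pools of whole cultures, in which fewer cells expressing a gene and less RNA per cell cannot be told apart.

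In BMP2ADV590 against BMP2ADV, 8 of 27 tested members rose (29.6%), beside 4.37% of all tested genes higher and 8.26% called in either direction. The median log2 fold change of the 27 members was 0.31, against 0 over all genes. An unadjusted p below 0.05 was found for 16 members, beside 21.2% of all genes. The 3 BMP2ADV590 libraries lay above all 3 BMP2ADV libraries for 16 members, where this held for 12.5% of all genes. They lay below for 2 members, Col13a1 and Col18a1, which also held for 12.5% of all genes. The 19 members that were not called had log2 fold changes from -1.23 (Col13a1) to 0.74 (Col19a1), with a median of 0.21. With single libraries left out, the count of 8 ran from 6 without BMP2ADV replicate 3, where the calls of Col4a1 and Col16a1 were lost, to 11 without BMP2ADV590 replicate 2. The 11 were the same 8, with Col6a3 and Col3a1 higher and Col18a1 lower.

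**Figure D1:**
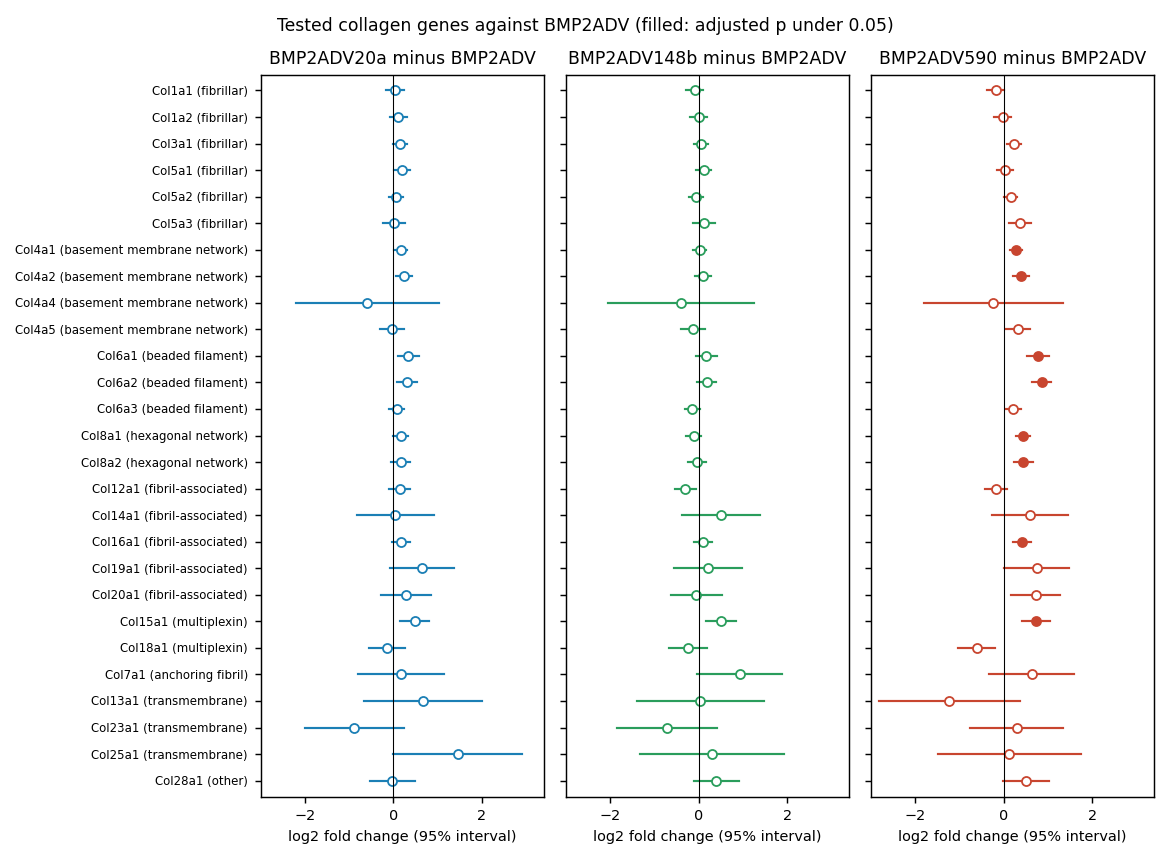
Log2 fold change of the 27 tested collagen genes against BMP2ADV (points, edgeR fit) with 95% intervals (lines), for BMP2ADV20a, BMP2ADV148b and BMP2ADV590, 3 libraries a group. Filled points, adjusted p below 0.05, are found only in the BMP2ADV590 panel, in 8 genes from Col4a1 (0.27) to Col6a2 (0.85).

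Col6a1 and Col6a2, which encode the short α1 and α2 chains of type VI collagen, had the smallest adjusted p-values of the 27 tested non-cartilage members. Col6a1 (ENSMUSG00000001119, GRCm38 chr10:76708792-76726168) was at 546, 442 and 535 CPM in BMP2ADV. It was at 622, 673 and 632 CPM in BMP2ADV20a, at 450.2, 659 and 599 CPM in BMP2ADV148b and at 789, 1032 and 782 CPM in BMP2ADV590. All 3 BMP2ADV590 libraries lay above the other 9, and BMP2ADV590 replicate 2 was the highest. The log2 fold change in BMP2ADV590 was 0.77 (SE 0.116, 95% interval 0.53 to 1.01, adjusted p = 0.000129). Without BMP2ADV590 replicate 2 it was 0.63 (adjusted p = 0.000302).

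Col6a2 (ENSMUSG00000020241, chr10:76595762-76623630) was at 450.5, 409.6 and 411 CPM in BMP2ADV and at 558, 507 and 510.4 CPM in BMP2ADV20a. It was at 393, 494 and 552 CPM in BMP2ADV148b and at 670.3, 887 and 728 CPM in BMP2ADV590. Again the 3 BMP2ADV590 libraries lay above all others. Its log2 fold change in BMP2ADV590 was 0.85 (SE 0.105, 95% interval 0.63 to 1.06, adjusted p = 1.56e-05), or 0.72 without replicate 2 of that group (adjusted p = 2.01e-05). Both genes kept their call under each of the 18 alternative settings tried, with the largest adjusted p at 0.0025 for Col6a1 and 0.000347 for Col6a2.

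Col6a3, which encodes the long α3 chain that completes the usual type VI molecule, did not pass the test. It was at 591, 537 and 509.7 CPM in BMP2ADV and at 597, 553 and 575 CPM in BMP2ADV20a. It was at 447, 498 and 545 CPM in BMP2ADV148b and at 649.9, 571 and 674 CPM in BMP2ADV590. BMP2ADV590 replicate 2, the highest library for Col6a1 and Col6a2, was the lowest of its group here and lay within the BMP2ADV range. Fitted by edgeR, the log2 fold change in BMP2ADV590 was 0.21 (95% interval 0.04 to 0.38, adjusted p = 0.136), and it passed the test without that library (0.28, adjusted p = 0.0428). The alternative α chains Col6a4, Col6a5 and Col6a6, neighbours on chromosome 9, had 4, 3 and 3 counts in all 12 libraries together and were not tested.

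**Figure D2:**
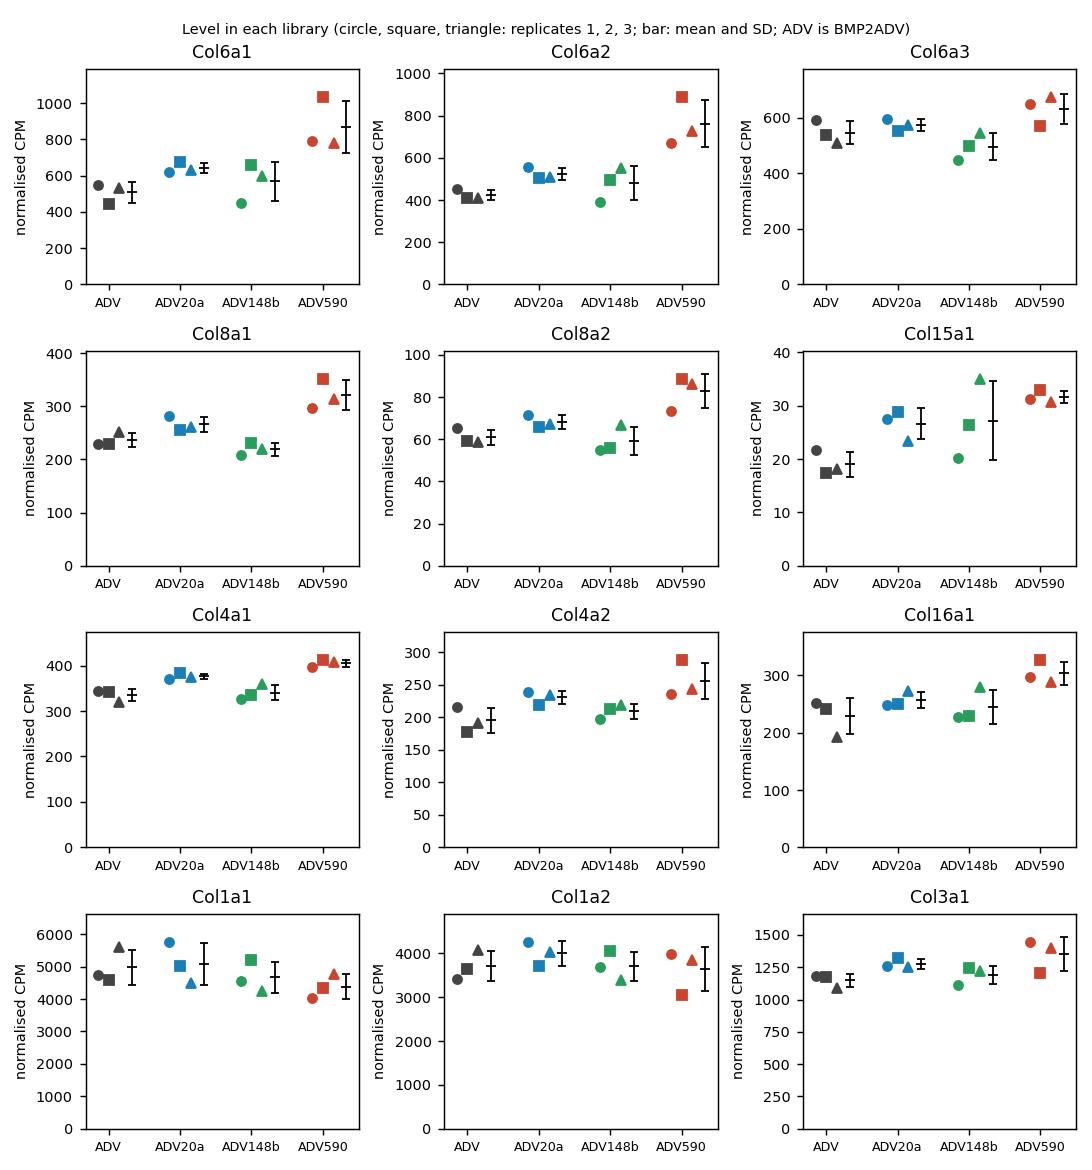
Normalised CPM of 12 collagen genes in each of the 12 libraries (circle, square and triangle for replicates 1, 2 and 3), with the mean and SD of each group as a bar and ADV standing for BMP2ADV. The BMP2ADV590 libraries of Col6a1 (782 to 1032) and Col6a2 (670.3 to 887) lie above all other libraries, while those of Col1a1 and Col1a2 lie among them.

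Counts of 2 chains can be compared as a ratio within a library, which is free of scaling. The log2 ratio of Col6a3 to Col6a1 was 0.11, 0.28 and -0.07 in BMP2ADV and -0.28, -0.85 and -0.22 in BMP2ADV590. These ranges do not overlap. It was -0.06, -0.28 and -0.14 in BMP2ADV20a and -0.01, -0.41 and -0.14 in BMP2ADV148b, between the means of the other groups and overlapping both. The mean ratio of Col6a1 to Col6a2 was 0.26 (SD 0.136) for BMP2ADV, 0.29 (SD 0.128) for BMP2ADV20a, 0.24 (SD 0.154) for BMP2ADV148b and 0.19 (SD 0.0717) for BMP2ADV590. These ratios are of 3′ tags, not of protein chains, and were described without a test.

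**Figure D3:**
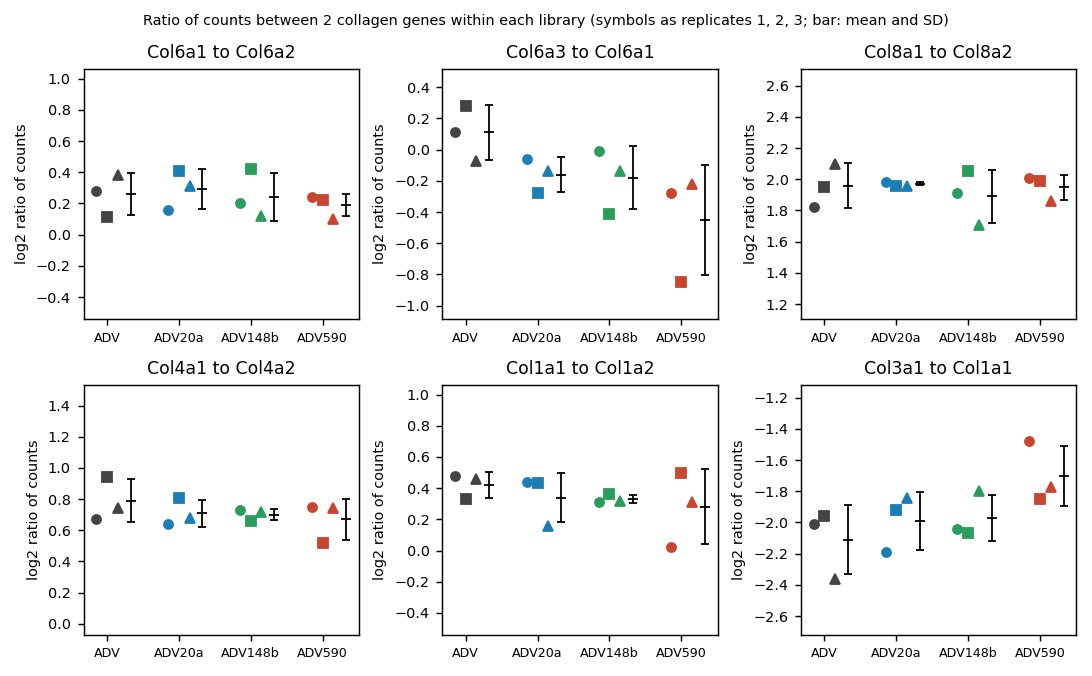
Log2 ratio of the counts of 2 collagen genes within each library, with symbols for replicates 1, 2 and 3, and the mean and SD of each group as a bar. The ratio of Col6a3 to Col6a1 falls from a mean of 0.11 in BMP2ADV to -0.45 in BMP2ADV590, while Col8a1 to Col8a2 stays between 1.89 and 1.97 in all 4 groups.

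Both genes of type VIII collagen, a short-chain collagen of blood vessel walls and of the cornea's Descemet membrane, rose in BMP2ADV590. Col8a1 (ENSMUSG00000068196, chr16:57624258-57754737) was at 229, 229 and 251 CPM in BMP2ADV and at 282, 255 and 261 CPM in BMP2ADV20a. It was at 208, 231 and 219 CPM in BMP2ADV148b and at 297, 352 and 313 CPM in BMP2ADV590. The BMP2ADV590 libraries lay above all others. The fitted log2 fold change against BMP2ADV was 0.44 (SE 0.0805, 95% interval 0.27 to 0.60, adjusted p = 0.000997).

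Col8a2 (ENSMUSG00000056174, chr4:126286793-126314330) was at 65.1, 59.2 and 58.5 CPM in BMP2ADV and at 71.7, 65.6 and 67.1 CPM in BMP2ADV20a. It was at 55.1, 55.7 and 67.0 CPM in BMP2ADV148b and at 73.6, 88.6 and 86.3 CPM in BMP2ADV590. Here too no other library reached the BMP2ADV590 range. The log2 fold change against BMP2ADV was 0.44 (SE 0.101, 95% interval 0.23 to 0.65, adjusted p = 0.00691). The mean log2 ratio of Col8a1 to Col8a2 was 1.96 for BMP2ADV and 1.95 for BMP2ADV590, with 1.97 for BMP2ADV20a and 1.89 for BMP2ADV148b. Both calls held under all 18 alternatives, with adjusted p up to 0.00961 for Col8a1 and 0.0422 for Col8a2.

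Col4a1 and Col4a2 encode the α1 and α2 chains that together form the common type IV collagen. They lie head to head on chromosome 8 with start sites 21 bases apart. Col4a1 (ENSMUSG00000031502, chr8:11198423-11312826) was at 345, 342 and 321 CPM in BMP2ADV and at 397, 412 and 408 CPM in BMP2ADV590. In BMP2ADV20a it was at 371, 383 and 374 CPM and in BMP2ADV148b at 326, 336 and 359 CPM. The BMP2ADV590 libraries were the 3 highest and the BMP2ADV20a libraries came next. Its log2 fold change in BMP2ADV590 was 0.27 (SE 0.0702, 95% interval 0.13 to 0.42, adjusted p = 0.0159). The call was lost without BMP2ADV replicate 3 (adjusted p = 0.0885), without BMP2ADV590 replicate 3 (0.0551) and with only both groups in the fit (0.0569).

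Col4a2 (ENSMUSG00000031503, chr8:11312805-11449287) was at 216, 178 and 192 CPM in BMP2ADV and at 238, 219 and 233 CPM in BMP2ADV20a. It was at 196, 212 and 218 CPM in BMP2ADV148b and at 235, 287 and 244 CPM in BMP2ADV590. The BMP2ADV590 libraries lay above those of BMP2ADV and overlapped those of BMP2ADV20a. Fitted by edgeR, the log2 fold change in BMP2ADV590 was 0.39 (SE 0.0884, 95% interval 0.20 to 0.57, adjusted p = 0.00684), and the call was lost without BMP2ADV replicate 2 (adjusted p = 0.0597). The mean log2 ratio of Col4a1 to Col4a2 was 0.79 in BMP2ADV and 0.67 in BMP2ADV590, with SDs of 0.140 and 0.133.

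The other type IV chains, found in specialised basement membranes such as those of the kidney, were scarce except for Col4a5. Col4a5 was at 29.0, 29.8 and 24.8 CPM in BMP2ADV and at 38.4, 30.9 and 34.5 CPM in BMP2ADV590 (log2 fold change 0.31, adjusted p = 0.156). For BMP2ADV590 against BMP2ADV148b it was not called in the main fit. It did pass there with DESeq2 (0.44, adjusted p = 0.0401) and, in edgeR, without BMP2ADV590 replicate 2 (0.51, adjusted p = 0.0309). Col4a4 had 83 counts in all libraries, with a log2 fold change of -0.24 in BMP2ADV590 and a 95% interval of -1.81 to 1.33. Col4a6 had 32 counts and Col4a3 had 3, and neither was tested.

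Col15a1 (ENSMUSG00000028339, chr4:47208161-47313167), whose product links basement membranes to the matrix below, was at 21.7, 17.3 and 18.1 CPM in BMP2ADV and at 27.6, 28.9 and 23.3 CPM in BMP2ADV20a. It was at 20.2, 26.4 and 35.0 CPM in BMP2ADV148b and at 31.2, 32.98 and 30.7 CPM in BMP2ADV590. The BMP2ADV590 libraries lay above those of BMP2ADV and BMP2ADV20a, while those of BMP2ADV148b ran from within the BMP2ADV range to above the BMP2ADV590 range. The fitted log2 fold change in BMP2ADV590 was 0.73 (SE 0.158, 95% interval 0.40 to 1.05, adjusted p = 0.00467). Against BMP2ADV it was 0.48 in BMP2ADV20a (adjusted p = 0.267) and 0.51 in BMP2ADV148b (adjusted p = 0.271).

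The second multiplexin, Col18a1, precursor of the fragment endostatin, pointed the other way. It was at 13.5, 13.1 and 14.7 CPM in BMP2ADV and at 8.82, 11.3 and 6.81 CPM in BMP2ADV590, and these libraries did not overlap. Its log2 fold change of -0.61 did not pass the test (SE 0.204, 95% interval -1.03 to -0.19, adjusted p = 0.0668). It did pass with DESeq2 (adjusted p = 0.0480), with no filter on low counts (0.0456) and without BMP2ADV590 replicate 2 (-0.80, adjusted p = 0.0230).

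Among the fibril-associated collagens, Col16a1 (ENSMUSG00000040690, chr4:130047840-130099283) was at 252, 242 and 193 CPM in BMP2ADV and at 249, 249.5 and 273 CPM in BMP2ADV20a. It was at 227, 229.5 and 279.5 CPM in BMP2ADV148b and at 296, 326 and 288 CPM in BMP2ADV590. The BMP2ADV590 libraries were again the 3 highest, and BMP2ADV replicate 3 was the lowest of all 12. The log2 fold change was 0.41 (SE 0.0970, 95% interval 0.21 to 0.61, adjusted p = 0.00948), and without BMP2ADV replicate 3 the call was lost (0.30, adjusted p = 0.0876). Col12a1, the fibril-associated collagen of tendon and ligament, had a log2 fold change of -0.18 (adjusted p = 0.411). The scarcer Col14a1, Col19a1 and Col20a1 had values of 0.59, 0.74 and 0.72 that did not pass the test. Col22a1 had 0 counts. An exon of Col20a1 overlaps the gene model BX649560.1 on the same strand, which had 616 counts beside 990 for Col20a1, so its count is uncertain.

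The fibrillar genes, which hold most of the collagen counts, were not called in any comparison. Col1a1, for the α1 chain of type I collagen, was at 4751, 4578 and 5598 CPM in BMP2ADV and at 5766, 5004 and 4488 CPM in BMP2ADV20a. It was at 4553, 5195 and 4246 CPM in BMP2ADV148b and at 4041, 4325 and 4783 CPM in BMP2ADV590. All 4 groups overlapped. Its log2 fold change in BMP2ADV590 was -0.18 (95% interval -0.38 to 0.01, adjusted p = 0.276).

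Col1a2, for the α2 chain of type I, was at 3406, 3651 and 4068 CPM in BMP2ADV and at 4264, 3708 and 4019.7 CPM in BMP2ADV20a. It was at 3679, 4042 and 3393 CPM in BMP2ADV148b and at 3982, 3059 and 3856 CPM in BMP2ADV590. The groups overlapped throughout, and BMP2ADV590 replicate 2 was the lowest library. Fitted by edgeR, the log2 fold change in BMP2ADV590 was -0.03, and its 95% interval of -0.22 to 0.16 does not reach the increases of Col6a1 or Col6a2.

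Col3a1, the single chain of type III collagen of soft tissues, was at 1183, 1175 and 1089 CPM in BMP2ADV and at 1259.7, 1321 and 1251 CPM in BMP2ADV20a. It was at 1109, 1240.3 and 1223 CPM in BMP2ADV148b and at 1447, 1203 and 1402 CPM in BMP2ADV590. Both BMP2ADV20a and BMP2ADV590 libraries lay above those of BMP2ADV. The fitted log2 fold change in BMP2ADV590 was 0.23 (95% interval 0.08 to 0.39, adjusted p = 0.0594). It passed with DESeq2 (adjusted p = 0.0353), limma-voom (0.0444), no filter on low counts (0.0339) and without BMP2ADV590 replicate 2 (0.00814).

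Type V collagen starts fibrils and sets their width. Col5a1, for its α1 chain, was at 619.8, 625 and 671 CPM in BMP2ADV and at 568, 693 and 685 CPM in BMP2ADV590. In BMP2ADV20a it was at 835, 701 and 653 CPM and in BMP2ADV148b at 676, 719 and 669.5 CPM. The ranges of BMP2ADV and BMP2ADV590 overlapped. Col5a2, for the α2 chain, was at 839, 924 and 894 CPM in BMP2ADV and at 930.2, 957 and 1064 CPM in BMP2ADV590. In BMP2ADV20a it was at 909, 988 and 879.6 CPM and in BMP2ADV148b at 836, 869 and 851 CPM. Of the pair, Col5a2 had its BMP2ADV590 libraries above those of BMP2ADV, and its log2 fold change was 0.15 (adjusted p = 0.235), against 0.02 for Col5a1 (adjusted p = 0.929). Col5a3 was at 68.9, 61.9 and 54.0 CPM in BMP2ADV and at 85.3, 80.5 and 72.3 CPM in BMP2ADV590. Among uncalled members it had the adjusted p nearest to the threshold (0.36, adjusted p = 0.0551). Col5a3 did pass with DESeq2 (adjusted p = 0.0421) and with no filter on low counts (0.0177). It also passed without BMP2ADV replicate 1 (0.0380) and, in another fit, without BMP2ADV148b replicate 3 (0.0363).

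Summed by class, the beaded filament genes went from 1477 ± 101 CPM (SD, n = 3) in BMP2ADV to 2261 ± 201 in BMP2ADV590. The basement membrane network went from 560.0 ± 27.3 to 697 ± 31.1 CPM and the hexagonal network from 298 ± 10.8 to 403 ± 35.2 CPM. In these 3 classes the libraries of both groups did not overlap. This separation from BMP2ADV was shared by BMP2ADV20a, whose libraries lay between those of BMP2ADV and BMP2ADV590 in each class. They were at 1717 to 1777 CPM for the beaded filament, 633 to 635 CPM for the basement membrane network and 321 to 354 CPM for the hexagonal network. The BMP2ADV590 libraries also lay above those of BMP2ADV in the fibril-associated, multiplexin and anchoring fibril classes. The same held for the sum of Col26a1 and Col28a1. The multiplexin sum joins Col15a1, which rose, with Col18a1, whose BMP2ADV590 libraries lay below those of BMP2ADV. The anchoring fibril class is the uncalled Col7a1 alone, at 1.26 to 1.39 CPM in BMP2ADV and 2.00 to 2.15 CPM in BMP2ADV590. In the fibrillar and transmembrane classes the libraries of both groups overlapped. The fibrillar sum was 11418 ± 829.8 CPM in BMP2ADV and 11078 ± 773 in BMP2ADV590. Over all members the sum was 14217 ± 784 CPM for the BMP2ADV libraries and 14975 ± 598 for those of BMP2ADV590. For BMP2ADV20a it was 15309.5 ± 976 and for BMP2ADV148b 14024 ± 932, and all 4 groups overlapped. The sums were not tested.

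The remaining members were scarce. Col28a1 was at 5.18 to 12.3 CPM over the 12 libraries, Col7a1, the anchoring fibril collagen of skin, at 1.22 to 4.35 CPM and Col23a1 at 0.424 to 3.67 CPM. The transmembrane collagens Col13a1 and Col25a1 had 95 and 113 counts in all. Their 95% intervals in BMP2ADV590 against BMP2ADV, -2.82 to 0.36 for Col13a1 and -1.49 to 1.74 for Col25a1, are wide. The Col25a1 interval holds both a rise and a fall of the size seen in Col6a2. The Col13a1 interval holds a fall of that size but not a rise. Below the filter lay Col17a1 with 71 counts, Col26a1 with 13 and Col24a1 with 4, besides those named above.

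In BMP2ADV20a against BMP2ADV, 0 of 27 tested members were called by edgeR, beside 0.476% of all genes, and 0 by DESeq2 or limma-voom. At an unadjusted p below 0.05 there were 8 members, beside 9.87% of all genes. The median log2 fold change was 0.16, against 0 over all genes, and 22 of 27 values were positive. For 11 members the BMP2ADV20a libraries all lay above those of BMP2ADV, where 7.76% of all genes did so. Col6a1 and Col6a2 were among these 11, with log2 fold changes of 0.34 (95% interval 0.10 to 0.58, adjusted p = 0.292) and 0.31 (0.09 to 0.53, adjusted p = 0.279). With only the BMP2ADV and BMP2ADV20a libraries in the fit both passed, at adjusted p of 0.0253 and 0.0298, as they did with no filter on low counts (0.00343 and 0.0146).

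In BMP2ADV148b against BMP2ADV, 0 of 27 members were called by edgeR, beside 0.249% of all genes, and 0 by DESeq2 or limma-voom. At an unadjusted p below 0.05 there were 2 members, Col15a1 and Col12a1, beside 8.43% of all genes, and the median log2 fold change was 0.04. That count of 2 was 6 without BMP2ADV148b replicate 1, 4 without its replicate 2 or 3, 3 without BMP2ADV replicate 1 or 2 or BMP2ADV590 replicate 3, and 1 without BMP2ADV replicate 3. Col6a1 and Col6a2 had values of 0.17 and 0.18, and Col8a1 and Col8a2 had values of -0.11 and -0.04. The 3 comparisons with BMP2ADV share the BMP2ADV libraries, so their values are given side by side only.

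The hybrid groups were also compared with each other. In BMP2ADV590 against BMP2ADV148b, 6 members rose and none fell, beside 2.46% of all genes higher and 4.43% called in either direction. These were Col6a1 (0.61, adjusted p = 0.00211), Col6a2 (0.67, adjusted p = 0.000303), Col6a3 (0.35, adjusted p = 0.0156), Col8a1 (0.55, adjusted p = 0.000166), Col8a2 (0.48, adjusted p = 0.00497) and Col4a1 (0.25, adjusted p = 0.0390). All 3 tested chains of type VI were thus higher than in BMP2ADV148b. Without BMP2ADV148b replicate 1 the calls of Col6a3 (adjusted p = 0.170), Col8a2 (0.0576) and Col4a1 (0.218) were lost and 3 remained. The Col4a1 call was lost in 12 of the 18 alternatives, among them no filter, the replicate block and the fit of only both groups. That of Col6a3 was lost in 4, the fit of only both groups and those without BMP2ADV148b replicate 1, BMP2ADV148b replicate 2 or BMP2ADV590 replicate 3.

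In BMP2ADV590 against BMP2ADV20a, Col6a1 (0.43, 95% interval 0.20 to 0.67, adjusted p = 0.0472) and Col6a2 (0.54, 0.32 to 0.75, adjusted p = 0.00660) rose. Beside these 2 of 27, 1.29% of all genes were higher and 2.17% called in either direction. The Col6a1 call was lost in 11 of 18 alternatives, with adjusted p up to 0.215. That of Col6a2 was lost only without BMP2ADV20a replicate 2 (0.0554). In BMP2ADV148b against BMP2ADV20a, 0 members were called by edgeR, beside 0.559% of all genes, and 0 by DESeq2 or limma-voom, with 3 at an unadjusted p below 0.05, beside 7.79% of all genes. Without BMP2ADV148b replicate 3 these were 7, without its replicate 2 they were 6, without BMP2ADV590 replicate 1 they were 5, and without BMP2ADV20a replicate 1 they were 2. Over all 4 groups at once, 8 members differed, beside 6.25% of all genes, and they were the 8 that rose in BMP2ADV590 against BMP2ADV.

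The enzymes that modify, fold, process and cross-link collagen were read as 6 lists, of which BMP2ADV590 against BMP2ADV is given here, to be read beside the 4.37% of all tested genes that were higher and the 8.26% called. Of 15 genes of proline and lysine modification, 9 rose and none fell (median 0.29). P3h2, a prolyl 3-hydroxylase known for acting on basement membrane collagen, went from 51.8 to 91.1 CPM (0.81, SE 0.132, adjusted p = 0.000279). The lysyl hydroxylase genes Plod1 (0.48, adjusted p = 0.00136) and Plod2 (0.48, adjusted p = 0.00199) and the prolyl 3-hydroxylase gene P3h1 (0.36, adjusted p = 0.00767) followed by p-value. Plod2 makes the hydroxylysine used in stable cross-links of the collagen ends.

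Of 10 genes of folding and export, 3 rose, all FK506-binding proteins of the endoplasmic reticulum: Fkbp7 (0.43, adjusted p = 0.00211), Fkbp9 (0.31, adjusted p = 0.0134) and Fkbp14 (0.37, adjusted p = 0.0290). Of 6 genes of propeptide processing, 2 rose. Pcolce2, for an enhancer of C-propeptide removal, had a mean of 203 CPM in BMP2ADV and 306 CPM in BMP2ADV590 (a log2 difference of 0.59, SE 0.0844, adjusted p = 7.68e-05). Adamts2, for the N-propeptidase, rose by 0.51 (adjusted p = 0.00486). Of 4 cross-linking genes, Lox, for lysyl oxidase, rose (0.26, adjusted p = 0.0264), a call that was lost in 5 of 18 alternatives (adjusted p up to 0.159). These were the replicate block, the fit of only both groups and the fits without BMP2ADV replicate 2, BMP2ADV replicate 3 or BMP2ADV590 replicate 2. The Fkbp9 call was lost without BMP2ADV590 replicate 2 (adjusted p = 0.0760) or BMP2ADV replicate 3. For Fkbp14 it was lost whenever 1 BMP2ADV library was left out, and without BMP2ADV590 replicate 1 or 3 (adjusted p up to 0.130).

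Of 12 genes for partners of collagen IV in basement membranes, 3 rose: the nidogen gene Nid2 (0.45, adjusted p = 0.00214), the laminin chain gene Lama4 (0.37, adjusted p = 0.00787) and Pxdn (0.27, adjusted p = 0.0416), whose product peroxidasin cross-links collagen IV. The Pxdn call was lost in 11 of 18 alternatives, among them no filter, the replicate block, the fit of only both groups and 8 fits with a library left out (adjusted p up to 0.173). That of Lama4 was lost without BMP2ADV replicate 3 (adjusted p = 0.0668). The median of the 12 was -0.03. Of 6 collagen receptor genes, 0 were called by edgeR, 1 by DESeq2 and 1 by limma-voom, and 2 had an unadjusted p below 0.05 in edgeR. Of the 53 genes of the 6 lists, 0 were called in BMP2ADV20a against BMP2ADV by edgeR or limma-voom and 1 by DESeq2, with 9 at an unadjusted p below 0.05 in edgeR, beside 9.87% of all genes. In BMP2ADV148b against BMP2ADV these counts were 0, 0 and 1, with 6 at an unadjusted p below 0.05, beside 8.43% of all genes. For comparison, 7 of the 8 cartilage collagen genes rose in BMP2ADV590 (median 0.90). Whether they differ from the 27 other collagens was not tested.

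**Figure D4:**
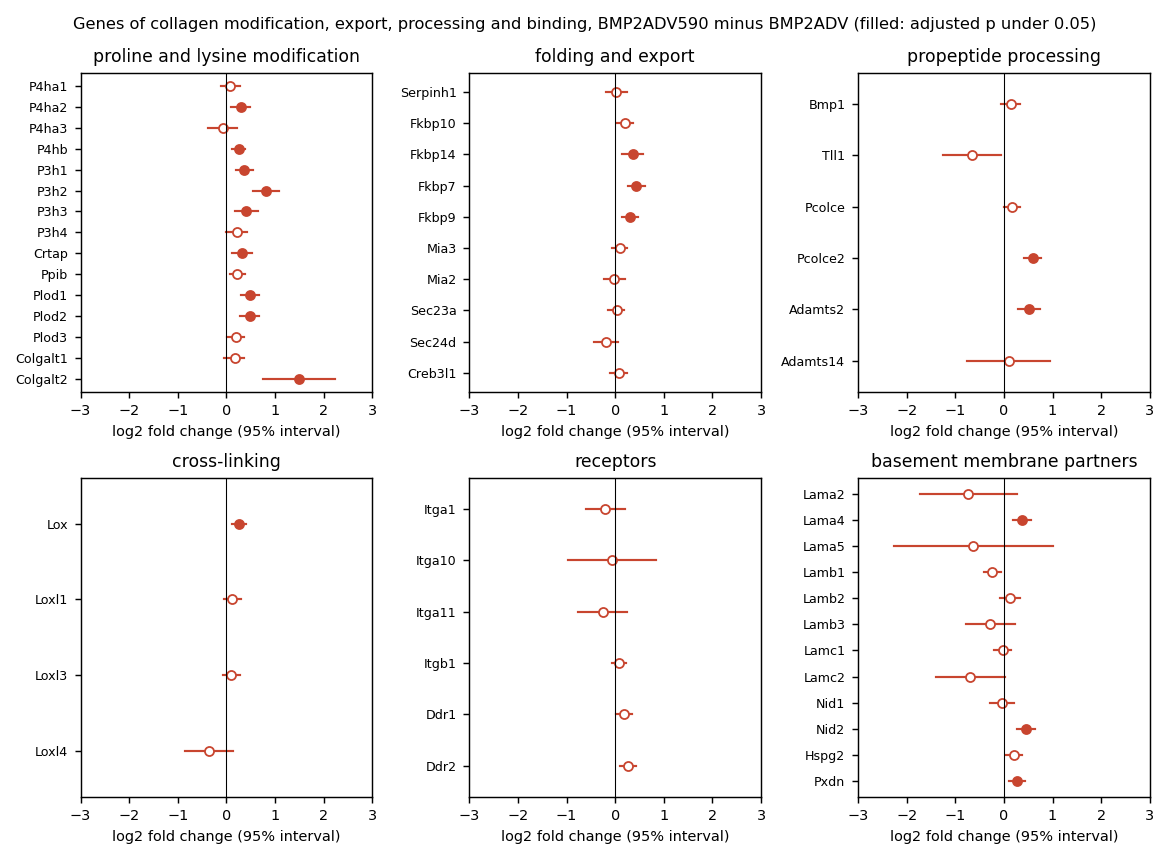
Log2 fold change in BMP2ADV590 against BMP2ADV (points, edgeR fit, 3 libraries a group) with 95% intervals (lines) for the tested genes of 6 lists on collagen modification, folding, processing, cross-linking, receptors and basement membrane partners. Filled points, adjusted p below 0.05, number 9 of 15 in the modification list and 0 of 6 among receptors.

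Some markers moved with the same group. The summed level of the 8 mesenchymal markers was 11749 to 12074 CPM in BMP2ADV and 13196 to 14583 CPM in BMP2ADV590, with 12259 to 12633 CPM in BMP2ADV20a and 11119.8 to 12052 CPM in BMP2ADV148b. Not all 8 were higher there: mean levels in BMP2ADV and BMP2ADV590 were 524 and 496 CPM for Prrx1, 133 and 129 CPM for Pdgfrb and 22.5 and 18.5 CPM for Twist1. Vim held most of the sum, with a mean of 7166 CPM in BMP2ADV and 8759 CPM in BMP2ADV590 (log2 fold change 0.29, adjusted p = 0.00988). The 6 neural and Schwann cell markers summed to 164 to 248 CPM in BMP2ADV and to 375 to 439 CPM in BMP2ADV590. Most of this was S100b, also a cartilage gene, with group means of 198 and 395 CPM, followed by Tubb3 with 11.6 and 17.5 CPM, and Sox10 was at 0. The 6 endothelial markers, with Cdh5 at 0, summed to 8.80 to 13.6 CPM in BMP2ADV and 6.28 to 7.81 CPM in BMP2ADV590, mostly Tek (means of 7.85 and 4.92 CPM). The 6 epithelial markers stayed at or below 3.64 CPM and the 6 macrophage markers at or below 9.33 CPM in every library, led by Cdh1 and Cd14. The 5 skeletal muscle markers summed to 9.15 to 16.9 CPM, mostly Acta1 (means of 14.4 CPM in BMP2ADV and 10.0 CPM in BMP2ADV590). The part of these shifts in the collagen results was not tested.

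Some members are neighbours in the genome. Col6a2 and Col6a1 lie on the same strand of chromosome 10 with 85.2 kb between them, and both rose. Col4a1 and Col4a2 overlap by 22 bases at their starts, and both rose. Col3a1 and Col5a2 lie tail to tail on chromosome 1 with 24.6 kb between them, and neither was called. No source used here gives the strand setting of the counting, so reads from overlapping antisense genes cannot be told apart. The antisense model within Col5a1, 2810430I11Rik, had 230 counts beside 92175 for Col5a1, and those overlapping an exon of Col15a1 and Col4a2 had 0.

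The miRNA of each plasmid can pair through its seed, bases 2 to 8, with sites in 3′ untranslated regions. The RefSeq mature sequences are shown, with the seed in capitals, and below them the sites found in the longest GENCODE M21 3′ untranslated region of 5 members with the level results above. In the sites, capitals mark the 7 bases complementary to the seed, on the transcript strand of GRCm38. No sequence of miR-590 was in the sequence table used here, so miR-21a-5p, whose seed miR-590-5p is known to share, stands in its place. The other arm, miR-590-3p, was not searched.
mmu-miR-20a-5p: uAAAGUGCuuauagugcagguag
mmu-miR-148b-3p: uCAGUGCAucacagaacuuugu
mmu-miR-21a-5p: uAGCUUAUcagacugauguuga
Col4a2 with a miR-20a-5p site, chr8:11448973-11449002, plus strand: aggagatgataGCACTTTtttctatcaaat
Col4a1 with a miR-148b-3p site, chr8:11199487-11199516, minus strand: ttgcaatccagTGCACTGatgtctggggcg
Col6a2 with a miR-148b-3p site, chr10:76598934-76598963, minus strand: gattaaaggcaTGCACTGccatgccccact
Col5a2 with a miR-148b-3p site, chr1:45374470-45374499, minus strand: accattttgtcTGCACTGgcttaaaaataa
Col12a1 with a miR-21a-5p site, chr9:79600860-79600889, minus strand: ggaggcgcctaATAAGCTactaaccaacag

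Of 27 tested members with an annotated 3′ untranslated region, 2 held the miR-20a-5p site GCACTTT (Col4a2 and Col4a4), where 15.55% of 11609 tested genes did. The miR-148b-3p site TGCACTG was held by 5 (Col4a1, Col5a2, Col6a2, Col23a1 and Col25a1), beside 17.0% of genes. The miR-21a-5p site ATAAGCT was held by 1, Col12a1, beside 8.61% of genes. None of these members was called in the comparison of the matching hybrid with BMP2ADV. The miR-20a-5p members had log2 fold changes of 0.24 (Col4a2) and -0.59 (Col4a4) in BMP2ADV20a. The 5 miR-148b-3p members ranged from -0.71 to 0.31 in BMP2ADV148b with a median of 0.02, beside 0.04 for the other 22. Col12a1 was at -0.18 in BMP2ADV590, beside a median of 0.34 for the 26 members without the site. Col6a1, Col8a1, Col8a2, Col15a1 and Col16a1, which rose in BMP2ADV590, held none of these 3 sites in that region.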

How the data were processed

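RNA was read as QuantSeq 3′ mRNA FWD libraries, made from 100 ng RNA with 16 amplification cycles, per the labels' protocols. Per the submitters' processing notes, FastQC 0.11.5, STAR 2.5.2a, HTSeq 0.6.0, DESeq2 (given as 3.11) and GRCm38 were used. The deposited values are raw counts per gene, 1 file per library. No source used here gives the counting mode, strand setting or annotation release. Lines naming no gene, 52.2% to 54.4% of a library and mostly non-unique reads, were left out. Symbols came from GENCODE M21 for 47224 of 47643 genes. Collagen reads shared between related genes would be among the reads left out.

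Here, edgeR 4.0.16 in R 4.3.3 (TMM, filterByExpr, a mean for each of 4 groups over 12 libraries, glmQLFit and glmQLFTest) tested 13229 genes. Calls were made at a Benjamini-Hochberg adjusted p of 0.05. Each SE and 95% interval comes from the same fit. On simulated data for BMP2ADV590 against BMP2ADV with 13229 genes, 38 of 67 genes changed 1.5-fold were recovered, 59 of 67 changed 2-fold and 63 of 66 changed 4-fold, and 9 of 12805 unchanged genes were called. No duplicate libraries were found. Alternatives were other scaling (DESeq2's size factors), no filter, DESeq2 1.42.0, limma-voom (limma 3.58.1), a replicate block, a fit of only the groups compared and leaving out each library, and for the seed sites all annotated 3′ untranslated regions. Named members are those called in any comparison and the genes of types I, III, V (α1 and α2), IV (α1 and α2) and VI. From the enzyme lists the called genes were named, up to 4 for each list and comparison by smallest p. Others named, such as Col18a1 and Col5a3, were chosen after their values were seen. The members and lists were chosen with earlier results of these data known.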

Additional observations from a re-analysis of the deposited data

How the results depend on the processing

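No result reversed direction past a test. The collagen count in BMP2ADV590 against BMP2ADV, 8, was 6 to 11 when single libraries were left out and 7 to 11 otherwise, and 1 of the 11 (Col18a1) was lower with DESeq2, with no filter and without BMP2ADV590 replicate 2. In BMP2ADV20a against BMP2ADV it went from 0 to 2 with no filter and to 2 with only both groups in the fit. In BMP2ADV148b against BMP2ADV20a it went from 0 to 1 under the same 2 settings, and was 0 to 1 with a library left out (1 without BMP2ADV20a replicate 3), the gene being Col12a1, which was lower in BMP2ADV148b. In BMP2ADV590 against BMP2ADV20a, 2 calls became 1 with DESeq2's size factors, 1 with the replicate block and 4 with no filter (Col1a1 and Col12a1 lower), and 0 to 2 without a library (0 without BMP2ADV20a replicate 2). In BMP2ADV590 against BMP2ADV148b, 6 became 3 to 7 without a library (3 without BMP2ADV148b replicate 1). Under the other settings it was 4 to 9, with 4 in the fit of only both groups and 9 with DESeq2. Over 4 groups, 8 became 4 with the replicate block and 12 with no filter, where Col5a3, Col4a6, Col12a1 and Col6a3 were added. Without a library the count was 3 to 9 (3 without BMP2ADV590 replicate 3, 4 without BMP2ADV replicate 2 or 3). The causes were not tested. Over all genes, the 63 calls of BMP2ADV20a against BMP2ADV became 184 with no filter, 127 with DESeq2, 145 with only both groups in the fit and 36 with the replicate block. The 33 of BMP2ADV148b against BMP2ADV became 126 with no filter, 82 with DESeq2 and 14 with the block, the 74 of BMP2ADV148b against BMP2ADV20a became 137 with no filter, and the 287 of BMP2ADV590 against BMP2ADV20a became 519 with no filter and 172 with the block. With single libraries left out, the all-gene counts ran from 18 (without BMP2ADV replicate 2) to 108 (without BMP2ADV590 replicate 2) for BMP2ADV20a against BMP2ADV and from 3 (without BMP2ADV replicate 3) to 60 (without BMP2ADV590 replicate 2) for BMP2ADV148b against BMP2ADV. They ran from 565 (without BMP2ADV replicate 3) to 1115 for BMP2ADV590 against BMP2ADV, from 22 (without BMP2ADV20a replicate 1) to 93 for BMP2ADV148b against BMP2ADV20a, from 64 (without BMP2ADV20a replicate 1) to 489 (without BMP2ADV590 replicate 2) for BMP2ADV590 against BMP2ADV20a, and from 241 (without BMP2ADV148b replicate 1) to 656 for BMP2ADV590 against BMP2ADV148b. The shares over all genes move with them.

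The replicate numbers did not pair the libraries: same-number deviations correlated at -0.113 to 0.0715, and 1 of 12 libraries correlated best with its own number. With gene counts excluding Gm42418 and mitochondrial transcripts as the denominator, the summed level was 15806 (BMP2ADV), 16667 (BMP2ADV20a), 15433 (BMP2ADV148b) and 16334.5 (BMP2ADV590). With all annotated 3′ untranslated regions, 2 members in place of 1 held the miR-21a-5p site. Of the values for single genes under alternatives, 1836 kept their side of the threshold, called or not, 99 lost a call and 9 gained one. Many of the 1836 had no call to lose, as with all values of BMP2ADV20a and BMP2ADV148b against BMP2ADV. The share of calls lost is therefore larger than these counts show. Depth limits the scarce members, and changes near 1.5-fold were recovered only in part in simulated data.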

Other observations

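The collagen-modifying genes were also compared between the hybrid groups. In BMP2ADV590 against BMP2ADV148b, 5 of 15 genes of proline and lysine modification rose and none fell by edgeR's quasi-likelihood test, where 2.46% of all genes were higher and 4.43% called. By p-value the first 4 were P3h3 (0.58, adjusted p = 0.00313), P3h2 (0.59, adjusted p = 0.00869), Plod2 (0.40, adjusted p = 0.0121) and P3h1 (0.32, adjusted p = 0.0259). Fkbp14 (0.53, adjusted p = 0.00288), Fkbp7 (0.33, adjusted p = 0.0256), Pcolce2 (0.66, adjusted p = 3.30e-05) and the nidogen gene Nid2 (0.40, adjusted p = 0.00910) also rose. In BMP2ADV590 against BMP2ADV20a, P3h2 (0.56, adjusted p = 0.0216), Colgalt2 (1.64, adjusted p = 0.0149), Pcolce2 (0.42, adjusted p = 0.00840) and Nid2 (0.45, adjusted p = 0.00792) rose, where 1.29% of all genes were higher and 2.17% called. These comparisons share the BMP2ADV590 libraries. Many of these calls depend on single libraries. Against BMP2ADV148b, of 18 alternatives, Fkbp7 lost its call in 8 (adjusted p up to 0.108), P3h1 in 5 (up to 0.177), Plod2 in 3 (up to 0.109), P3h2 in 2 (up to 0.0935) and Nid2 in 1 (0.120), each time including the fit without BMP2ADV148b replicate 1. Against BMP2ADV20a, P3h2 lost its call in 3 (up to 0.176), Colgalt2 in 3 (up to 0.137), Pcolce2 in 2 (up to 0.0804) and Nid2 in 1 (0.0923), each time including the fit without BMP2ADV20a replicate 1. P3h3, Fkbp14 and Pcolce2 kept their calls against BMP2ADV148b in all 18. Colgalt2, which adds galactose to hydroxylysine, was scarce, at 8.82, 5.74 and 4.71 CPM in BMP2ADV590 and 2.88, 1.95 and 1.99 CPM in BMP2ADV.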
